A study of Homo sapiens with 3 samples.

Results

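The REV-ERB and ROR nuclear receptor genes were examined for binding of CRY1, a cryptochrome that represses transcription in the circadian clock, in C4-2 cells. C4-2 is a cultured line of human prostate cancer that no longer depends on androgen supply, and it was the only line in the series. The 2 immunoprecipitated CRY1 libraries (labelled Veh) and the 1 input library came from cells kept in hormone-proficient medium, and no other genotype, treatment or time was compared. The labels name no synchronisation of the cells, peak positions cannot check the labelled cell type by marker genes, and peaks were called by the authors on the 2 replicates combined, so every value below belongs to 1 pooled list and has no replicate error. The members were NR1D1, NR1D2, RORA, RORB and THRA, and a CRY1 peak was assigned to a gene when its summit, the base of highest read pileup, lay inside the gene body or within 50 kb of it (GENCODE release 44 on GRCh37). This rule gave 10 of the 2551 peaks (0.392%), and they lay at 3 of the 5 genes, where 22.1% of all protein-coding genes (4464 of 20163) had a summit by the same rule. NR1D1 and THRA overlap on opposite strands and share 8 of these peaks, each counted once, and NR1D2 has the other 2.

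REV-ERBα (NR1D1) and REV-ERBβ (NR1D2) are heme-binding repressors, and RORα and RORβ (RORA, RORB) are activators that read the same DNA element, the RORE, in clock genes such as BMAL1. The REV-ERB genes are themselves activated by CLOCK and BMAL1 through E-boxes, of which CACGTG is the canonical form, and PER and CRY proteins repress that activation. THRA encodes thyroid hormone receptor α, and its last exon lies tail to tail with that of NR1D1.

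CRY1 occupied both REV-ERB genes at some of the most enriched sites of the list. Fold enrichment, the authors' linear ratio of pileup to local background at the summit, was 17.8 at both NR1D1 and NR1D2, against a median of 5.18 over all peaks (quartiles 4.34 and 6.63). No summit was assigned to RORA or RORB. The sequences around these summits are shown first, since each carries the E-box nearest to the summit. All are read from GRCh37 on the plus strand, 5′ to 3′, with CACGTG in capitals.

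The NR1D1 summit window (chr17:38255358-38255458) lies in the first intron of the gene and is shown because it holds a pair of E-boxes on either side of the summit. The NR1D2 window (chr3:23987275-23987375) also lies in a first intron.
NR1D1: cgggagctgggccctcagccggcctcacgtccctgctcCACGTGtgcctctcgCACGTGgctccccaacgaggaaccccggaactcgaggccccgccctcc
NR1D2: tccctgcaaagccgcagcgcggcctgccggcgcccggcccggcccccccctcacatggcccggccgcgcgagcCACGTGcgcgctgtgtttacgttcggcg

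Further assigned summits with an E-box lay in the THRA gene and between NR1D1 and MSL1. They are shown for comparison with the stronger sites, the THRA windows without their annotated exon bases (chr17:38225261-38225332 and chr17:38228278-38228343), and the window upstream of NR1D1 whole (chr17:38269622-38269722), which lies in an exon of a gene model without experimental evidence.
THRA, first site: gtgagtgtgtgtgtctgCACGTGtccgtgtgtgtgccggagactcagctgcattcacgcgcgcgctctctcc
THRA, last site: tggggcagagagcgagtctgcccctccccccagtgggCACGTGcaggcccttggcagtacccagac
NR1D1 upstream: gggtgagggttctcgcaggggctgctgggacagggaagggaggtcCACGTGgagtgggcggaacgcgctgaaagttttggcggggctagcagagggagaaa

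NR1D1 had the widest of the member peaks. It spanned 2647 bp (chr17:38254757-38257403), the 7th widest of the list, where the median width was 181 bp and 81 peaks (3.18%) reached 1000 bp. It ranked 20th of 2551 by fold enrichment (17.8) and 7th by −log10 q (77.8). The peak covered the only annotated transcription start site (TSS) of NR1D1 at 38256842 on the minus strand, the whole of exon 1 and part of intron 1. Its summit lay at 38255408, 1434 bp downstream of the TSS. A pair of weaker peaks lay just beyond it inside the gene. One had a fold enrichment of 6.94 and a summit 2261 bp downstream of the TSS, and the other had 3.92 at 2639 bp, the lowest value of the 10. Gaps of 76 and 158 bp separated the 3 intervals.

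NR1D2 had a wide peak over its promoter. It spanned 1492 bp (chr3:23986711-23988202, 25th by width), with 17.8 listed as fold enrichment and 77.8 as −log10 q. It covered 3 of the 5 annotated TSS of NR1D2, at 23986777, 23986866 and 23987612, and a TSS on the minus strand at 23988082 of 1 transcript of the neighbour NKIRAS1. Its summit lay at 23987325, which is 548 bp downstream of the canonical TSS and 287 bp upstream of the one at 23987612. A weaker peak (chr3:23986401-23986618, fold enrichment 5.63) lay 92 bp outside this interval, with its summit 298 bp upstream of the canonical TSS. Both summits also lay in an intron of NKIRAS1, whose annotated body overlaps the start of NR1D2 on the opposite strand.

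The fold enrichment, −log10 p (84.4) and −log10 q of the NR1D1 and NR1D2 peaks were identical in all deposited digits, and a peak at PER3, a clock repressor gene, shared them. Such ties were common, since 72.7% of peaks had the same 3 values as at least 1 other peak. The list therefore gives no order between these genes, and without a spread between libraries it shows neither a difference nor an equality in occupancy.

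**Figure D1:**
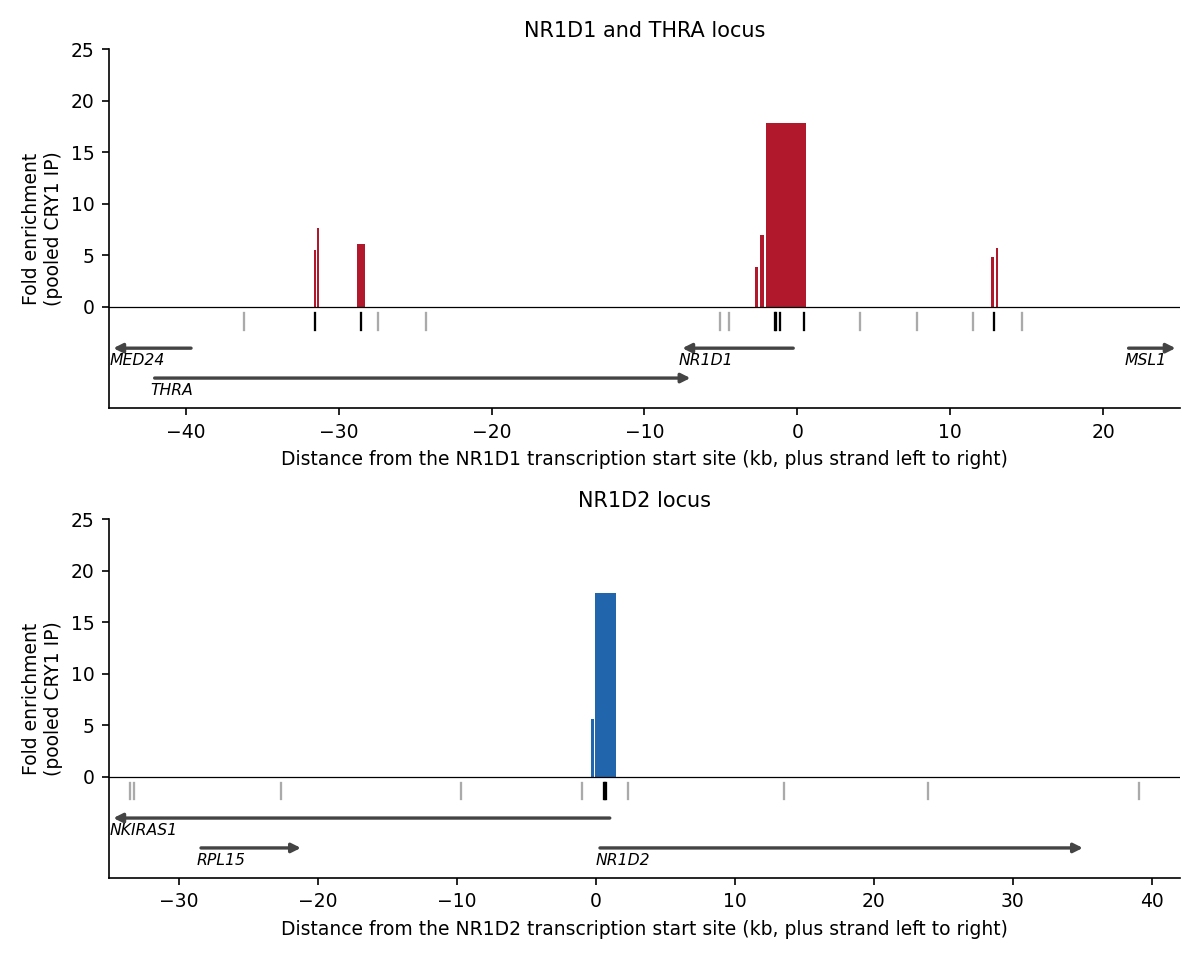
CRY1 peaks at the NR1D1 and THRA locus and the NR1D2 locus. The x axis is the distance from the canonical TSS of NR1D1 or NR1D2 in kb, bars span each peak interval (drawn at least 0.15 kb wide) with its fold enrichment as height, ticks below 0 are CACGTG sites (black inside a peak, grey outside), and arrows are protein-coding genes in the direction of transcription. Each locus has 1 wide peak at the TSS, at 17.8 in both, and smaller peaks between 3.92 and 7.7.

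At THRA the peaks lay in the first intron of the canonical transcript, near alternative TSS. The canonical TSS at 38219218 had no summit nearer than 6064 bp, and of the 8 annotated TSS of THRA only that at 38228344 lay within a peak. That peak (chr17:38228039-38228593, 555 bp, fold enrichment 6.07) had its summit 16 bp upstream of that TSS. A pair of narrower peaks lay beside the TSS at 38225156. The first (98 bp, fold enrichment 5.52) had its summit 126 bp downstream of it and the second (135 bp, fold enrichment 7.7) 340 bp downstream. The second was the strongest assigned peak apart from the NR1D1 and NR1D2 peaks. The 3 THRA summits lay between 28514 and 31560 bp beyond the NR1D1 TSS in the direction of NR1D1 transcription, and the strongest of them ranked 416th by fold enrichment.

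The last pair of member peaks lay in the stretch between NR1D1 and MSL1, a gene of a histone acetyltransferase complex. Their summits were 12830 and 13011 bp upstream of the NR1D1 TSS, with fold enrichments of 4.87 and 5.69. Both fell in ENSG00000279199, a gene model that the annotation marks as lacking experimental evidence (TEC). Merging peaks within 1 kb turned the 10 peaks into 5 sites, of which 4 were at NR1D1 and THRA and 1 at NR1D2.

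RORA and RORB, the other 2 members, had no assigned peak. RORA, the longest of the genes at 741019 bp (chr15:60780483-61521501), had its nearest summit 831 kb away at a peak of fold enrichment 4.54. RORB (chr9:77112251-77308093) had its nearest summit 2213 kb away, at a fold enrichment of 4.23. None of the 14 annotated TSS of RORA or the 2 of RORB lay in a peak. Absence from a list at q < 0.05 means that no enrichment was called there in the pooled libraries; sequencing depth is unknown, so a limit on weaker binding cannot be given.

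By rank, the assigned peaks were a few strong sites among many ordinary ones. Their median fold enrichment was 5.88 (range 3.92 to 17.8), and 8 of 10 lay above the median of the list. Without the NR1D1 and NR1D2 peaks, the highest was 7.7. All 10 had a q below 0.01, a limit that removed little from the list. With it, 21.7% of all protein-coding genes had a summit, against 22.1% without it. The nearest summit outside the 50 kb limit lay 194 kb from THRA, 218 kb from NR1D1 and 149 kb from NR1D2, with fold enrichments of 4.6, 4.33 and 4.23. The limit of 100 kb therefore selected the same number of peaks. The limit of 25 kb also gave that number.

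**Figure D2:**
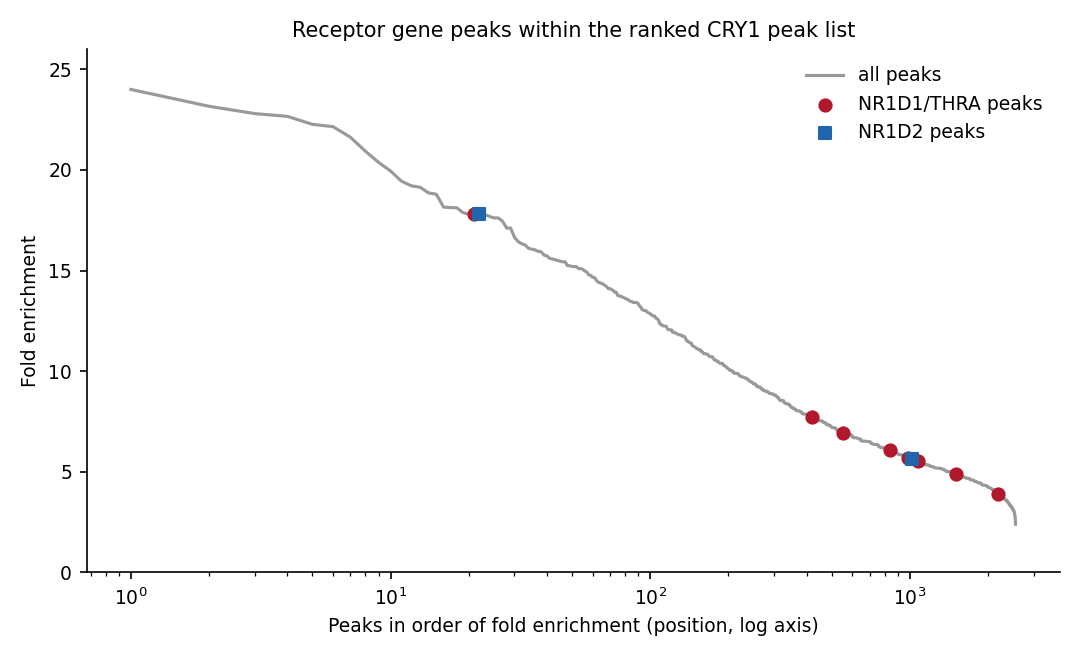
Receptor gene peaks in the ranked list. All 2551 peaks are placed on the x axis in order of fold enrichment (position, log axis) with fold enrichment on the y axis; circles are peaks at NR1D1 and THRA and squares at NR1D2. Both wide REV-ERB peaks sit at 17.8, and the other 8 receptor peaks sit at 7.7 or below.

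The E-box CACGTG lay within 50 bp of 5 of the 10 member summits, against 47.8% of all summits (1218 of 2549). The share among the members was thus near that of the list. In the windows centred 1000 bp to each side it was in 1 of 20 at the members and in 1.63% overall. That 1 window belonged to the weaker NR1D2 summit and lay inside the wide NR1D2 peak, so it is not sequence outside the peaks. The member summits with an E-box were those of the wide NR1D1 and NR1D2 peaks, the 2 THRA sites at 5.52 and 6.07, and the site upstream of NR1D1 at 4.87. Those without one had fold enrichments of 3.92, 5.63, 5.69, 6.94 and 7.7. Of these 5, 4 lay 181 to 846 bp from a member summit that did have an E-box, and the one at 3.92 lay 378 bp from the one at 6.94.

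Distances were read only at summits with an E-box within 50 bp, so that window caps them. From the summit to the centre of the nearest E-box they were 1, 10, 6, 2 and 26 bp at the 5 such member summits. The median over all summits of the list with an E-box in that window was 19 bp. The NR1D1 summit had an E-box on each side, at 9 bp below and 6 bp above it on the plus strand. Their starts were 15 bp apart, with 9 bases between the sites. Of all summit windows, 118 (4.63%) held 2 or more E-boxes, and 3 held a pair with this distance.

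The wide REV-ERB peaks held further E-boxes away from the summit. The NR1D1 peak had 4 in all, at −9, 6, 287 and 1896 bp from the summit, and 19 of all 2549 intervals (0.745%) had 4 or more. The NR1D2 peak had 3, at 26, 135 and 185 bp, and 68 intervals (2.67%) had 3 or more. Wide intervals have more room for a site: of the 81 peaks of 1000 bp or more, 75 held an E-box, 18 held 3 or more and 7 held 4 or more, and their median fold enrichment was 13.6.

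Outside its first intron, the NR1D1 peak reached a single E-box upstream of the TSS, shown here because 3 elements lie within a short stretch (chr17:38257271-38257336). Capitals mark CACGTG, the E′-box CACGTT (read here as AACGTG) and the nuclear receptor half-site AGGTCA (read here as TGACCT). The E-box lies at 38257301 to 38257306, upstream of the TSS at 38256842.
NR1D1 promoter: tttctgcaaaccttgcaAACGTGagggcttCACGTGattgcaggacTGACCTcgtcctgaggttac

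Downstream of its summit, the NR1D2 peak held a pair of E-boxes with a RORE match between them, shown because both kinds of clock element sit in the same stretch (chr3:23987442-23987527). Capitals mark CACGTG and the RORE, which matched here on the minus strand. The RORE was searched on both strands as A or T, A, A or T, any base, T, A or G and then GGTCA.
NR1D2 promoter: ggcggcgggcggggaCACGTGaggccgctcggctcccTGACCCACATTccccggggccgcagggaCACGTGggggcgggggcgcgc

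These E-boxes start 50 bp apart, at 23987457 and 23987507, upstream of the TSS at 23987612. RefSeq lists a promoter window of NR1D2 at this TSS (GRCh38.p14), which matched GRCh37 exactly at 23987362 to 23987661 and holds both E-boxes and the RORE. Of the 35116 RefSeq promoter windows, 2548 (7.26%) hold CACGTG and 233 (0.664%) hold 2 or more. The members have 7 such windows, and this one alone held CACGTG. The window of NR1D1, whose E-boxes lie farther from the TSS, held the E′-box only, and the windows of RORA, RORB, THRA and the canonical NR1D2 promoter held neither.

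The RORE was rare under CRY1 peaks. It lay in 6 of 2549 intervals (0.235%), of which NR1D2 was the only one assigned to a member, and in 3 summit windows (0.118%), none of them a member. The pair of half-sites in direct repeat known as the RevDR2, through which REV-ERB receptors bind as dimers, was in no member interval and in 1 interval of the list (0.0392%). The half-site AGGTCA lay in 3 member intervals and in 14.4% of all intervals. The D-box, searched as TTA with C or T and then A or G before TAA, lay 1 time in the wide NR1D1 peak and 1 time in that of NR1D2, and was in 1.45% of all intervals. A match is a description of the letters only.

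**Figure D3:**
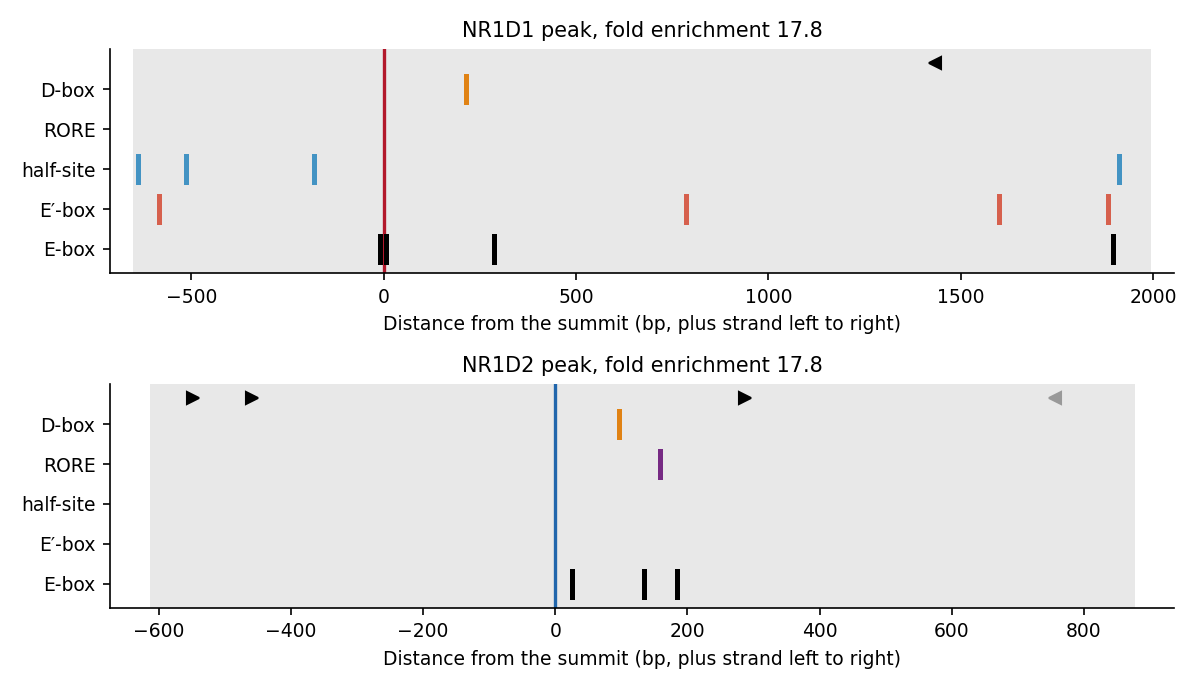
Motif matches inside the wide NR1D1 and NR1D2 peaks. The x axis is the distance from the summit in bp (coloured line at 0), grey shading is the peak interval, vertical marks are matches on either strand of the motif named on the y axis (the half-site is AGGTCA), and triangles at the top are annotated TSS pointing in the direction of transcription (black for the receptor gene, grey for NKIRAS1). The E-boxes at −9 and 6 bp overlie the NR1D1 summit, and the NR1D2 RORE lies between the E-boxes at 135 and 185 bp.

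With its flanking bases, the E-box nearest to the summit read CCACGTGC on one of the strands at both NR1D1 and NR1D2. This was the most frequent of the flanked forms in the list, at 236 of 1344 E-boxes in summit windows (17.6%). The other E-box at the NR1D1 summit, at −9 bp, read ACACGTGG, a form that made up 7.44% of the list. The E-boxes of the weaker sites read ACACGTGC and GCACGTGC at THRA and CCACGTGG upstream of NR1D1, forms that made up 14.3, 9.75 and 5.13% of the list.

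The share of G and C in the member intervals ran from 45.8 to 71.9%, with 5 of 10 below the median of 63.2% over all peak intervals. The NR1D2 peak had 71.9% over its interval with 186 CpG sites, and the NR1D1 peak had 58.8% with 128, against a median of 62% over the 81 wide intervals. No 32-base stretch of any member summit window occurred a second time in the genome (70 stretches for each of the 10 summits).

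Most CACGTG sites at these genes lay outside the peaks. RORA and its 50 kb flanks hold 89 CACGTG sites and RORB and its flanks hold 15, and none of them lay in a peak. Around NR1D1, 7 of 17 sites lay in a peak, around THRA 7 of 21 (the same 7) and around NR1D2 3 of 19. On all chromosomes the share was 0.682% (1881 of 275867). Within 1 kb of a protein-coding TSS it was 5.41% (1045 of 19315). At that distance from their own TSS, the sites in a peak were 1 of 1 for NR1D1, 3 of 4 for NR1D2, 2 of 2 for THRA and 0 of 1 for RORA, and RORB had no site.

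The position relative to promoters depended on the annotation. By the definition of 1 kb upstream to 100 bp downstream of any annotated TSS, 3 of 10 member summits lay in a promoter (both of NR1D2 and the THRA site at 38228328), against 54.9% of all summits. The NR1D1 summit was intronic by this definition. All 10 summits lay within 5 kb of an annotated TSS, and 5 within 1 kb on either side. With the TSS of the member genes alone, 8 lay within 5 kb. In the basic transcript set only the weaker NR1D2 summit counted as promoter. No share of all summits is given for these other definitions, so their counts cannot be read as particular to the members.

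The binding was next placed beside that of related genes, from lists chosen with earlier results known. Among other clock genes driven through E-boxes all 10 had an assigned summit, where the share of all protein-coding genes was 22.1%. They were PER1, PER2, PER3, CRY2, DBP, TEF, HLF, BHLHE40, BHLHE41 and CIART. The strongest peak of each had a fold enrichment between 10.1 and 23.2, a range that includes the NR1D1 and NR1D2 values. The highest of them, 23.2, lay 9272 bp from the nearest BHLHE41 TSS. Of these 10 strongest peaks, 3 (PER1, TEF and BHLHE41) had CACGTG within 50 bp of the summit, as the wide NR1D1 and NR1D2 peaks did. Of the 10, 7 had none there, the PER3 peak with the same listed values among them. The share of all summits with CACGTG in that window was 47.8%. For CRY2, DBP and HLF the whole interval held none.

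Of 13 other receptor genes of the same nuclear receptor subfamily, 4 (30.8%) had a summit, where the share of all protein-coding genes was 22.1%. Their strongest peaks ran from 5.63 to 7.15, below the 17.8 of the REV-ERB genes and near the 7.7 of the strongest peak inside THRA. THRB, the thyroid hormone receptor β gene that neighbours NR1D2, had 2 inside the gene, the stronger at 7.15. RARA, a retinoic acid receptor gene, also had 2, at most 6.53 and with the nearest 0.01 kb from a TSS. The liver X receptor gene NR1H3 had one at 5.63. The bile acid receptor gene NR1H4 had 2 outside the gene body, at most 5.89. No summit was assigned to RARB, RARG, PPARA, PPARD, PPARG, NR1H2, VDR, NR1I2 or NR1I3.

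Genes on which the receptors act through the RORE, and the corepressors of the REV-ERB proteins, showed little binding of similar strength. Of BMAL1, CLOCK, NPAS2, NFIL3 and CRY1, only CRY1 had a peak (11.2, at its own promoter). This share of 20% was near the 22.1% of all protein-coding genes. The nearest summit to BMAL1 lay 1166 kb away. Of 5 corepressor genes, 3 had a summit, and 1 had a summit within 5 kb of its own TSS. By the 50 kb rule, 22.1% of all protein-coding genes had a summit, and 8.22% had one within 5 kb of a TSS. The strongest peaks of these 3 genes were 4.22 at the promoter of HDAC3, the deacetylase of the complex, 5.01 inside TBL1X and 6.18 for GPS2. The TBL1X summit lay 10.4 kb from a TSS of that gene, and the GPS2 summit lay 29.9 kb outside the gene body. NCOR1 and TBL1XR1 had none. These counts describe the lists and no difference between them was tested.

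**Figure D4:**
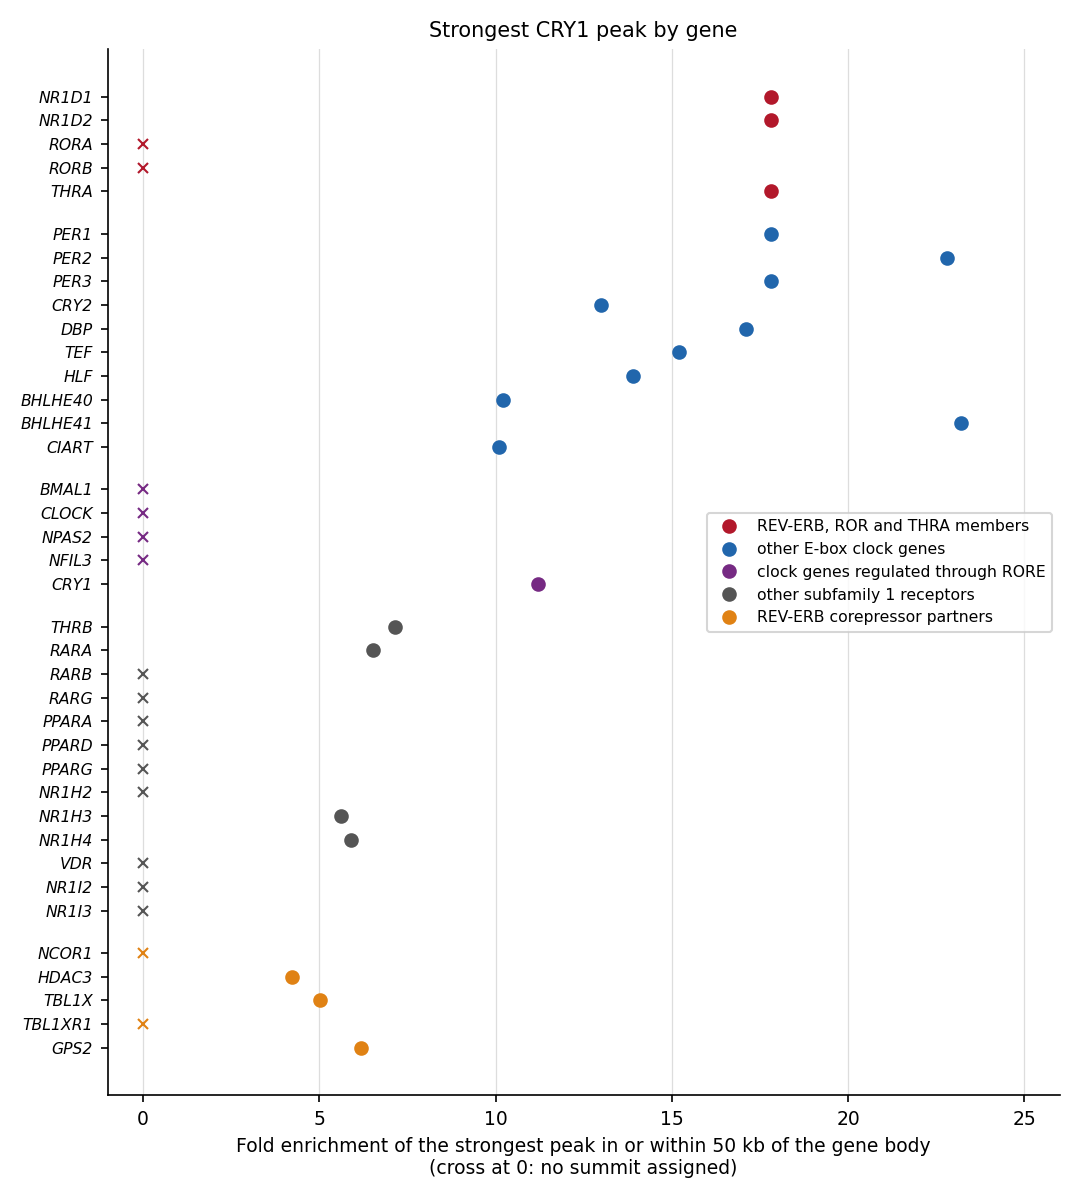
Strongest CRY1 peak by gene. The x axis is the fold enrichment of the strongest peak whose summit lay in or within 50 kb of the gene body, points are genes coloured by list, and a cross at 0 marks a gene with no assigned summit. The point of THRA is the peak it shares with NR1D1; both REV-ERB genes at 17.8 sit among the E-box clock genes (10.1 to 23.2) and above the other subfamily receptors (at most 7.15).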

How the data were processed

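Chromatin immunoprecipitation and sequencing of CRY1 was performed by the authors in C4-2 cells (2 immunoprecipitates and 1 input). Per the methods of the study, reads were aligned to hg19 (GRCh37) with bowtie2 at default settings, and peaks were called with MACS2 on combined replicates at q < 0.05. Use of the input as control is presumed, and handling of duplicates was not given in the sources used here. The deposited list holds per peak a score, fold enrichment (a linear ratio), −log10 p and −log10 q. Depth is unknown, and no value has a replicate error.

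Summits were assigned to genes and TSS of GENCODE release 44 on GRCh37, and 2 peaks on unplaced contigs were left out of steps that need the genome. Motifs were read on both strands of windows of 50 bp on each side of the summit and of whole intervals with pysam 0.24.0, after a check on planted sequences. That check did not include the D-box. All protein-coding genes, summits and CACGTG sites served as background. No test was run, and alternative distances, windows and thresholds are given in the closing section. The members and lists were chosen with earlier results of these data known. Every member peak is reported, and other genes by fixed lists. RefSeq promoters (GRCh38.p14) were matched by sequence. Some genes of the fixed lists are not reported here.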

Additional observations from a re-analysis of the deposited data

How the results depend on the processing

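The count of 3 member genes held under limits of 25 and 100 kb, the gene body alone, 5 kb of a TSS, q < 0.01, a fold enrichment of at least 5, merging and interval overlap. The 10 member peaks became 5 after merging, 7 in the gene body and 8 at a fold enrichment of at least 5. Counting only the TSS of the member genes, 8 lay within 5 kb of a TSS. The background share of protein-coding genes was 16.3% at 25 kb, 31.1% at 100 kb, 6.85% in the body, 8.22% within 5 kb of a TSS and 15.7% at a fold enrichment of at least 5. Member summits with CACGTG, 5 of 10, numbered 4, 5 and 7 with 25, 100 and 500 bp on each side, 3 at the midpoint of the peak, 5 in the whole interval and 5 with the E′-box added, and 4 of 8 at a fold enrichment of at least 5. The share of all summits with CACGTG was 29.6, 54.6 and 75.6% with 25, 100 and 500 bp on each side, 32.4% at the midpoint, 57.4% in the whole interval, 52.4% with the E′-box added and 56.6% at a fold enrichment of at least 5. Member summits in a promoter numbered 5 when a promoter reached 1 kb to both sides, 10 when it reached 5 kb and 1 with basic transcripts. The share of all summits under these definitions is not given. The rank of 20 for the NR1D1 and NR1D2 peaks was 7 by −log10 q, and 7 by width for NR1D1. The cause of these shifts was not tested.

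No replicate was left out, since the peaks were called on combined replicates. No paired analysis was possible because the values come from 1 pooled list and no test was run.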

Other observations

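The 6 peak intervals with a RORE match were looked up after the match at NR1D2 was seen. The DBP promoter (chr19:49140562-49141392, fold enrichment 17.1) held 2 matches, and a peak near HLF (chr17:53314327-53316667, 8.09) held 1, in each case within 50 bp of the summit. DBP and HLF encode PAR bZIP factors, which bind the D-box. The peak near MIR4729 (6.19) also held its match within 50 bp of the summit, and the others lay near FOXRED2 (13.6) and DNAAF5 (7.81). Of the 81 peaks of 1000 bp or more, 4 held a RORE, the NR1D2 peak among them.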
